A study of Sus scrofa with 15 samples.

Results

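ITGA4+BMPR1B+ chondrocytes are the cells of adult pig (Sus scrofa) knee cartilage that carried both of the surface proteins used for sorting, the integrin subunit ITGA4 and the BMP receptor BMPR1B. They made up 3 of the 15 libraries of the series, 1 from each of pigs 2, 5 and 6. They were compared within each animal with the other 3 chondrocyte populations of the same cartilage, namely those positive for ITGA4 alone (ITGA4+BMPR1B-), for BMPR1B alone (ITGA4-BMPR1B+) and for neither (ITGA4-BMPR1B-; 9 libraries, 3 for each population). The libraries were assigned by their sort labels, and the comparison was chosen with earlier results of these data known. The cartilage was digested with enzymes and the cells were sorted by flow cytometry on both proteins, and no treatment was named. The sources used here give no sex, no breed and no age beyond the adult stage. Each population was thus seen in 1 library per animal. The p values measure the spread left between libraries of these 3 pigs after population and pig are taken into account. The series also has 3 libraries of CD146+ synovial cells, which were not used here.

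Articular chondrocytes are long-lived cells that divide rarely in the adult and maintain a matrix of type II collagen and aggrecan. The surface cells of the tissue make lubricin, whereas deep cells near the calcified layer can take on a hypertrophic state with type X collagen and bone-associated proteins. During the cell cycle, replication genes are transcribed as cells enter S phase, and a later wave from S phase to mitosis supplies the cyclins, kinases, motors and ubiquitin enzymes that condense and separate chromosomes. The study asked of these libraries whether the cells carrying both proteins have a set of genes of their own.

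Values are given as the messenger-scaled signal. Structural and mitochondrial RNA were left out for it, and the messenger RNA of each library was brought to a common scale with a mean total of 1000000. It is unknown whether the signal was corrected for gene length, so levels are compared between libraries and not between genes. Messenger RNA rows held 4.02, 22.1 and 16.3% of the deposited signal in the ITGA4+BMPR1B+ libraries of pigs 2, 5 and 6, and 2.03 to 21.0% in the other 9 libraries. Read counts are unknown, but relative depth could be estimated from the steps between low values. By this estimate the ITGA4+BMPR1B+ library had the lowest messenger RNA depth in each pig. It was at 1, 1.21 and 1.64 times the shallowest library, against 1.19 to 3.15 times for the others. In pig 5, however, the ITGA4+BMPR1B+ library had the most messenger RNA rows above the lowest value, 16425 against 14235 to 15700. Low-level genes of the ITGA4+BMPR1B+ libraries may therefore be the least precise values used here, and what depth adds to the spread was not tested. The libraries were rich in chondrocyte products. COL2A1, the type II collagen chain, was at 14406, 34449 and 37237 in the ITGA4+BMPR1B+ libraries against 8656 to 66073 (median 20716) in the others. COMP, a glycoprotein of the cartilage matrix, was at 3897, 5732 and 6890.4 against 2533 to 7824 (median 4499). The messenger RNA of the sort markers was close to the lower limit, so the sort could not be checked from it. ITGA4 was at 0.969, 1.34 and 0.642 in ITGA4+BMPR1B+ cells against 0.0538 to 0.829 (median 0.627) in the others. BMPR1B was at 0.143, 0.0591 and 0.0150 against 0 to 0.145 (median 0.0430). In bulk RNA, more cells of a kind and more RNA per cell cannot be told apart, which applies to each difference below.

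Most cell-division genes were higher in ITGA4+BMPR1B+ cells than in the mean of the other populations in all 3 pigs, and so were most genes of mineralised and hypertrophic matrix. Most superficial zone genes were lower than that mean, although 6 of the 8 tested had a positive log2 difference from ITGA4-BMPR1B+ cells. Hedgehog and STAT3 pathway genes were more often lower than higher, but not on the signal as deposited. No single gene passed the threshold. Of 9077 genes tested, limma called 0 (0%) at an adjusted p of 0.05, and the smallest adjusted p was 0.143. At an unadjusted p under 0.05, 494 genes were higher (5.44% of those tested) and 669 lower (7.37%). By direction alone, 1453 genes were higher in ITGA4+BMPR1B+ cells than the mean of the other populations in every pig (16.0%) and 1579 lower (17.4%). This split depends on the scale. On the signal as deposited, where the median of all genes lay at 0.21, 3745 were higher and 249 lower. With plain messenger RNA totals 2033 were higher and 1098 lower. ITGA4+BMPR1B+ cells had the highest level of the 4 populations in every pig for 228 genes (2.51%) and the lowest for 265 (2.92%). Among those 228 genes, the next highest population by mean was ITGA4-BMPR1B+ for 117, ITGA4+BMPR1B- for 81 and ITGA4-BMPR1B- for 30. To include genes too low for the test, directions were also counted over all rows above the lowest value of the table in at least 1 library. Of these 20263 rows, 2384 (11.8%) were higher and 2836 (14.0%) lower in every pig. Since no gene passed the test, the values below describe these libraries. Some members of the mitotic, histone, cartilage, superficial zone, osteoblast, progenitor, WNT, integrin, macrophage and fibroblast lists had been named by the study on the basis of these samples. The counts of these lists are therefore not independent evidence of a direction.

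UBE2C (ENSSSCG00000007423), the ubiquitin-conjugating enzyme that works with the anaphase-promoting complex to destroy mitotic cyclins, was at 12.4, 43.2 and 62.4 in ITGA4+BMPR1B+ libraries of pigs 2, 5 and 6. It was at 8.67, 9.51 and 14.97 in ITGA4+BMPR1B-, 3.02, 5.81 and 27.5 in ITGA4-BMPR1B+ and 0.748, 2.75 and 2.93 in ITGA4-BMPR1B- libraries of the same pigs. In each pig ITGA4+BMPR1B+ cells were the highest of the 4 and ITGA4-BMPR1B- cells the lowest. Across pigs, its pig 2 value lay within the range of the other populations. The log2 difference from the mean of the others was 2.29 (SE 0.35, limma adjusted p = 0.143). TOP2A (ENSSSCG00000017473), the topoisomerase that untangles sister chromosomes, was at 7.26, 48.4 and 43.6 in ITGA4+BMPR1B+ cells, against 4.28, 6.995 and 6.54 in ITGA4+BMPR1B-, 2.15, 7.89 and 17.5 in ITGA4-BMPR1B+ and 1.65, 0.476 and 3.55 in ITGA4-BMPR1B- cells. It too was highest in ITGA4+BMPR1B+ cells of every pig, with a difference of 2.33 (SE 0.47, limma adjusted p = 0.175). The pig 2 library was below the ITGA4-BMPR1B+ libraries of pigs 5 and 6. CCNA2 (ENSSSCG00000009094), the cyclin of S phase and early mitosis, was at 12.4, 28.8 and 21.4 in ITGA4+BMPR1B+ libraries, all above the 2.10 to 9.002 (median 6.40) of the other 9. Its difference was 1.68 (SE 0.27, limma adjusted p = 0.143). CKS2 (ENSSSCG00000021161), a small subunit of cyclin-dependent kinases, was at 24.98, 61.1 and 29.6 against 7.93 to 17.2 (median 12.5), again with no overlap, a difference of 1.39 (SE 0.21, limma adjusted p = 0.143).

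**Figure D1:**
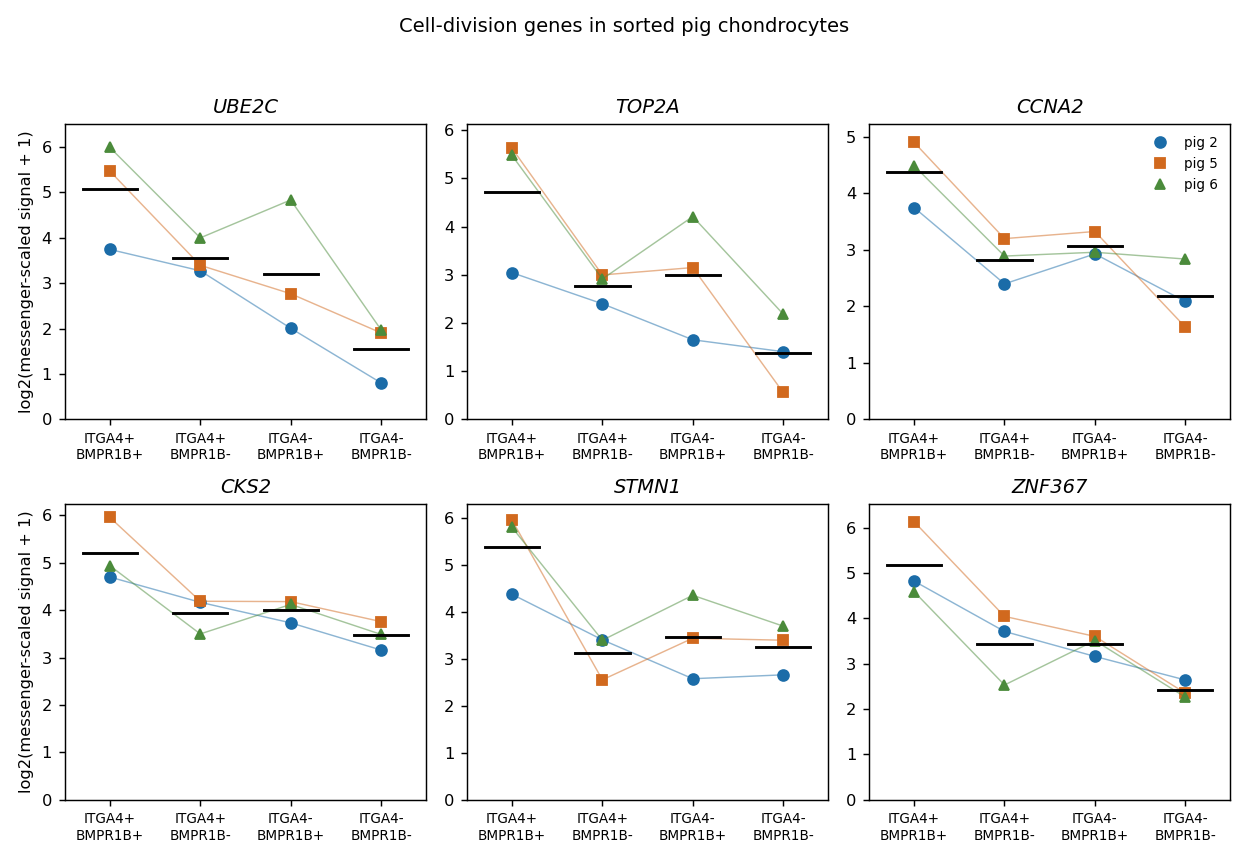
Messenger-scaled signal, as log2(signal + 1), of 6 genes used in cell division (UBE2C, TOP2A, CCNA2, CKS2, STMN1 and ZNF367) in the 4 sorted populations. Points are libraries, lines join the populations of 1 pig and bars are means of 3 pigs. In every pig the ITGA4+BMPR1B+ point is the highest of the 4 for each gene. The pig 2 point is the lowest of the ITGA4+BMPR1B+ points for 5 of the genes, the exception being ZNF367.

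Other mitotic genes were also higher in ITGA4+BMPR1B+ cells of each pig than in the mean of the other populations. TPX2, which activates Aurora A on spindle microtubules, was at 7.87, 9.69 and 9.35 in ITGA4+BMPR1B+ cells and 1.22 to 5.01 (median 3.07) in the others, a log2 difference of 1.37 (SE 0.20, limma adjusted p = 0.143). ANLN, a scaffold of the cleavage furrow, was at 6.99, 19.6 and 13.01 against 2.05 to 8.79 (median 2.96) (log2 difference 1.55, SE 0.30, limma adjusted p = 0.174). MKI67, the proliferation antigen Ki-67 that coats mitotic chromosomes, was at 7.43, 13.1 and 13.5 against 0.630 to 9.95 (median 3.22), a difference of 1.55 (SE 0.31, limma adjusted p = 0.174). For ANLN and MKI67 the ITGA4+BMPR1B+ library of pig 2 lay within the range of the others, whereas those of pigs 5 and 6 were above it. KIF20A, a motor of cytokinesis, CKAP2, a spindle protein, and CENPF, a kinetochore protein, had log2 differences of 1.75, 1.55 and 1.49, each with ITGA4+BMPR1B+ cells highest in every pig. TPX2 passed the filter on low values (above 5 in at least 3 libraries) only with the help of the ITGA4+BMPR1B+ libraries. Of the 5 tested spindle and cytokinesis genes, 1, with a difference of 0.66, passed on the other 9 libraries alone. The rest, with larger differences, did not. Of the 4 tested kinetochore genes 2 did. WEE1, a kinase that holds back entry into mitosis, was at 104, 106 and 66.8 against 46.4 to 87.4 (median 70.2), a smaller difference of 0.46 (SE 0.12, limma adjusted p = 0.203). In pig 6 ITGA4-BMPR1B+ cells had the higher WEE1 level.

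Mitotic genes were counted over 5 lists (kinases and cyclins, ubiquitin ligase and regulators, kinetochore, spindle and cytokinesis, chromosome condensation). Of their 74 rows, 54 were higher in ITGA4+BMPR1B+ cells in every pig and 1 lower, beside 11.8% and 14.0% of all rows. The counts were 59 and 0 on the signal as deposited, where 6628 of all 20263 rows were higher and 1094 lower. They were 54 and 0 with plain messenger RNA totals, where 3119 of all rows were higher (15.4%) and 2218 lower (10.9%). By the stricter count, 10 of the 24 rows that were tested were the highest of the 4 populations in every pig. Of the 9077 tested genes 2.51% were so. Over all 74 rows the count was 34, but the share over all 20263 rows was not counted, so this count has no background. With any 1 pig left out 56 to 63 were higher and 1 to 3 lower, where 19.4 to 21.4% of all rows were higher and 23.5 to 26.0% lower. Their summed signal was 484, 990.2 and 733 in ITGA4+BMPR1B+ libraries and 316 to 501 (median 367) in the others. The pig 2 library lay within the range of the other populations. Only 24 of the rows were abundant enough to be tested, and 9 of these 24 passed that filter only with the help of the ITGA4+BMPR1B+ libraries. Of the 15 that passed on the other 9 libraries alone, 9 were higher in every pig and 0 lower. The untested members include the central kinases of mitosis. CDK1, which drives entry into mitosis, was at 0.933, 9.91 and 5.11 in ITGA4+BMPR1B+ cells against 0.125 to 1.55 (median 0.660) in the others. AURKB, which corrects faulty attachments of chromosomes, was at 3.01, 8.17 and 8.26 against 0 to 2.12 (median 1.001), and BUB1, a kinase of the spindle checkpoint, at 2.95, 1.52 and 3.88 against 0.150 to 1.11 (median 0.385). Each of these kinases was higher in all 3 pigs, at levels where a few reads set the value.

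Other genes known from dividing cells were higher in each pig as well. ZNF367 (ENSSSCG00000028981), a zinc finger protein, was at 27.3, 69.1 and 23.1 in ITGA4+BMPR1B+ libraries, all above the 3.80 to 15.5 (median 7.94) of the others. The log2 difference was 2.09 (SE 0.30, limma adjusted p = 0.143). STMN1 (ENSSSCG00000026257), which destabilises microtubules and is abundant in dividing cells, was at 19.7, 60.9 and 54.6 against 4.87 to 19.4 (median 9.53), again without overlap (log2 difference 2.10, SE 0.33, limma adjusted p = 0.143). UBE2T (ENSSSCG00000010924), a ubiquitin enzyme of the Fanconi anaemia repair pathway, was at 16.6, 30.3 and 24.9 against 6.51 to 15.9 (median 12.5), all 3 above the other 9, a difference of 0.89 (SE 0.13, limma adjusted p = 0.143). MYBL1 (ENSSSCG00000027872), a MYB family transcription factor, was at 166, 88.5 and 30.1 against 13.03 to 91.9 (median 43.1) (log2 difference 0.996, SE 0.18, limma adjusted p = 0.171). Its levels differed more between pigs than between populations, highest in pig 2 and lowest in pig 6 in each population. TYMS, which makes the thymidylate needed for DNA synthesis, was at 15.3, 47.9 and 27.005 against 5.57 to 21.4 (median 9.14) (log2 difference 1.40, SE 0.31, limma adjusted p = 0.192). E2F1, the transcription factor of S phase entry, was at 26.7, 19.3 and 10.01 against 0.799 to 16.8 (median 4.79) (log2 difference 1.65, SE 0.47, limma adjusted p = 0.222). These genes were higher in ITGA4+BMPR1B+ cells in each pig, although the ranges of TYMS and E2F1 overlapped between groups.

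Of the DNA replication list 24 of 35 rows were higher in every pig and 0 lower (30 and 0 as deposited, 25 and 0 with plain totals). Of the 15 tested, 5 passed the filter only with the help of the ITGA4+BMPR1B+ libraries, and of the other 10, 5 were higher in every pig and 0 lower. The median log2 difference was 0.52 over the 15, in a range of -0.29 to 1.83, and 0.31 over those 10. The replicative helicase subunits MCM2, MCM3 and MCM4 had log2 differences of 1.04, 0.67 and 1.02. The origin licensing factor CDT1 had one of 1.83 and the polymerase clamp PCNA one of 0.68. Each of these genes was higher in all 3 pigs. Replication-dependent histone rows were higher in 9 of 19 and lower in 0. The linker histone HIST1H1B was at 166, 277 and 277 in ITGA4+BMPR1B+ cells against 111 to 240.2 (median 154) in the others. Histone genes are near-identical copies whose reads can be assigned to the wrong member, so single histone values are uncertain. G1 cyclins and cycle inhibitors showed no common direction, with 5 of 21 rows higher and 2 lower and a median of -0.02. Within that list the inhibitor CDKN2C was at 10.3, 43.8 and 55.8 against 5.93 to 37.2 (median 13.8) (log2 difference 0.86, SE 0.17, limma adjusted p = 0.174), higher in each pig. The inhibitor CDKN1B was at 35.1, 32.6 and 59.7 against 39.2 to 92.1 (median 55.1) (log2 difference -0.46, SE 0.16, limma adjusted p = 0.287), lower in each pig. The antiproliferative gene BTG2 was also lower in each pig, at 164, 219 and 189 against 182 to 426 (median 286) (log2 difference -0.52, SE 0.20, limma adjusted p = 0.317).

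SPP1 (ENSSSCG00000009216), which encodes osteopontin, a phosphoprotein of bone and calcified cartilage, was at 3103, 18325 and 4886 in ITGA4+BMPR1B+ libraries of pigs 2, 5 and 6. The values were 3209.7, 5252 and 2766 in ITGA4+BMPR1B-, 1416, 4833 and 4103 in ITGA4-BMPR1B+ and 1515, 3361 and 2713 in ITGA4-BMPR1B- libraries. ITGA4+BMPR1B+ cells were highest in pigs 5 and 6, ITGA4+BMPR1B- cells were slightly higher in pig 2. The pig 5 library was far above the other ITGA4+BMPR1B+ libraries, and the log2 difference was 1.13 (SE 0.31, limma adjusted p = 0.209). IBSP, the bone sialoprotein that nucleates hydroxyapatite, was at 8.85, 30.7 and 6.80 against 0.240 to 7.75 (median 2.42), highest in ITGA4+BMPR1B+ cells in every pig, a difference of 2.13 (SE 0.50, limma adjusted p = 0.192). BGLAP, which encodes osteocalcin, was at 15.9, 10.6 and 3.87 against 0 to 5.33 (median 2.32) (log2 difference 1.77, SE 0.48, limma adjusted p = 0.209). It was higher than the mean of the others in each pig, but lower than in ITGA4-BMPR1B- cells in pig 6. IBSP and BGLAP passed the filter on low values only with the help of the ITGA4+BMPR1B+ libraries. ENPP1, which produces the mineralisation inhibitor pyrophosphate, was at 172, 323 and 138 against 112 to 169 (median 129), highest in every pig (log2 difference 0.57, SE 0.22, limma adjusted p = 0.331).

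**Figure D2:**
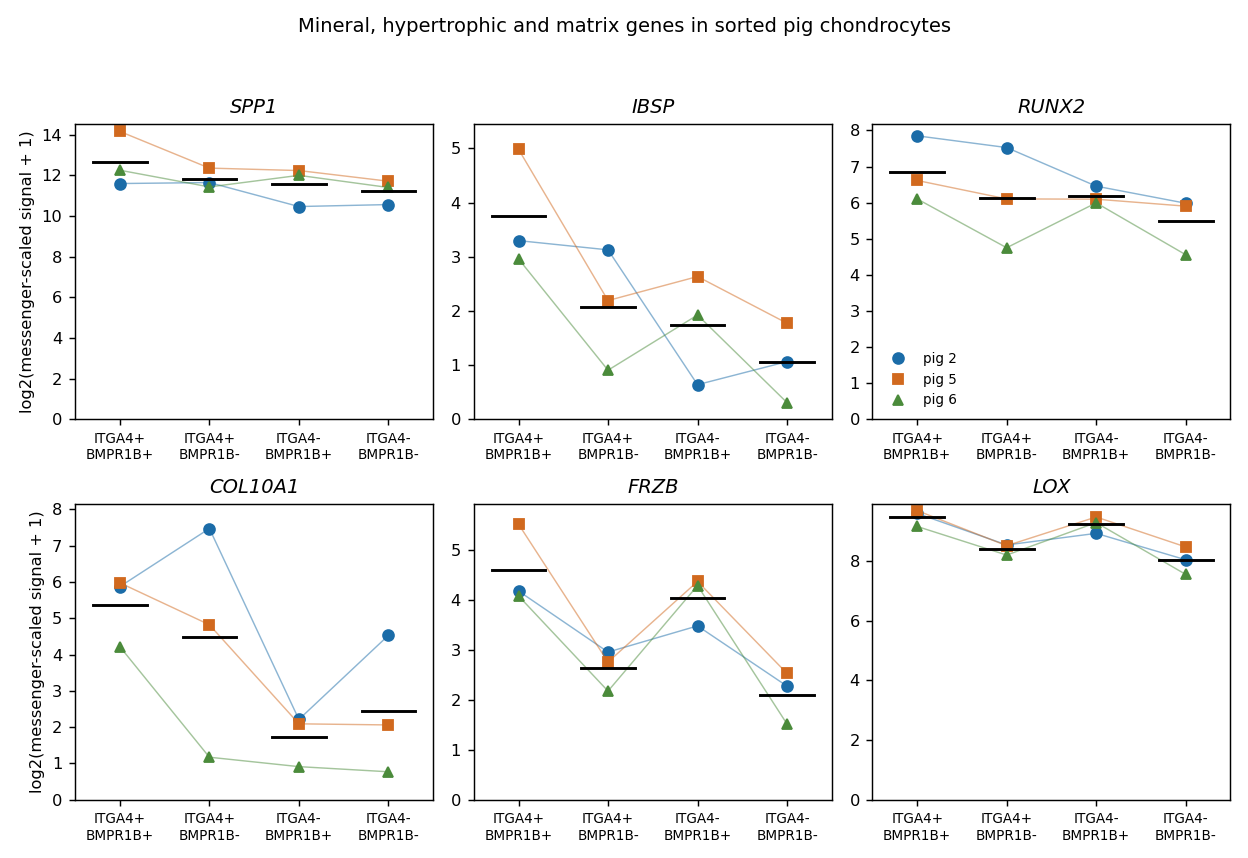
Messenger-scaled signal, as log2(signal + 1), of the mineral and hypertrophic genes SPP1, IBSP, RUNX2 and COL10A1 and the matrix-associated genes FRZB and LOX in the 4 sorted populations. Points are libraries, lines join 1 pig and bars are means of 3 pigs. IBSP and RUNX2 are highest in ITGA4+BMPR1B+ cells in each pig. COL10A1 in pig 2 is highest in ITGA4+BMPR1B- cells at 176. For FRZB and LOX the ITGA4-BMPR1B+ point of pig 6 lies slightly above the ITGA4+BMPR1B+ point.

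Of the mineralised matrix list 7 of 11 rows were higher in every pig and 0 lower (8 and 0 as deposited, 7 and 0 with plain totals, 8 and 0 to 1 with any 1 pig left out). The 5 members that passed the filter on the other 9 libraries alone had a median log2 difference of 0.56, against -0.02 over all 8681 genes that did so. The phosphatase ALPL, too low to be tested, was at 1.18, 1.97 and 0.822 against 0 to 1.11 (median 0.0807), also higher in each pig. SPARC, the collagen-binding protein osteonectin, has 2 entries in the table. The one of smaller p was at 1279.6, 1954 and 1763 against 547 to 2712 (median 969) (log2 difference 0.56, SE 0.21, limma adjusted p = 0.312). It was higher than the mean of the others in each pig yet lower than ITGA4-BMPR1B+ cells in each pig.

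Hypertrophic zone genes pointed the same way, with 6 of 9 rows higher in every pig and 1 lower (8 and 0 as deposited). Of its 7 tested members 2, IHH and MEF2C, passed the filter only with the help of the ITGA4+BMPR1B+ libraries, and of the other 5, 3 were higher and 1 lower. COL10A1, the collagen of hypertrophic cartilage, was at 57.5, 61.8 and 17.6 in ITGA4+BMPR1B+ cells, against 176, 27.3 and 1.25 in ITGA4+BMPR1B-, 3.63, 3.26 and 0.881 in ITGA4-BMPR1B+ and 22.1, 3.17 and 0.705 in ITGA4-BMPR1B- cells. The log2 difference was 2.46 (SE 0.69, limma adjusted p = 0.217), and the highest value of all belonged to the ITGA4+BMPR1B- library of pig 2, so the groups overlapped. IHH, the hedgehog ligand made by prehypertrophic chondrocytes, was at 5.70, 14.7 and 2.85 against 0 to 6.48 (median 1.61) (log2 difference 1.49, SE 0.44, limma adjusted p = 0.230), highest in ITGA4+BMPR1B+ cells in each pig. PTH1R, the receptor through which parathyroid hormone-related protein holds back hypertrophy, was at 9.65, 25.01 and 14.4 against 2.44 to 18.98 (median 5.35) (log2 difference 1.16, SE 0.28, limma adjusted p = 0.193). The transcription factor MEF2C was at 9.88, 7.48 and 4.29 against 2.82 to 6.08 (median 3.64) (log2 difference 0.75, SE 0.22, limma adjusted p = 0.230). MMP13, the collagenase of hypertrophic cartilage, was at 35.9, 50.03 and 19.2 against 5.22 to 40.6 (median 27.3) (log2 difference 0.75, SE 0.32, limma adjusted p = 0.387). It was above the mean of the others in each pig although ITGA4+BMPR1B- cells were higher in pigs 2 and 6.

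RUNX2 (ENSSSCG00000001710), the transcription factor that directs osteoblast differentiation and chondrocyte hypertrophy, was at 229.8, 97.02 and 67.8 in ITGA4+BMPR1B+ cells of pigs 2, 5 and 6. It was at 183, 67.8 and 25.97 in ITGA4+BMPR1B-, 86.9, 67.5 and 62.8 in ITGA4-BMPR1B+ and 62.3, 58.9 and 22.6 in ITGA4-BMPR1B- cells. ITGA4+BMPR1B+ cells were highest in each pig (log2 difference 0.93, SE 0.31, limma adjusted p = 0.285), by a small margin over ITGA4-BMPR1B+ cells in pig 6. Each population had its highest level in pig 2. TWIST1, a transcription factor that restrains RUNX2 in mouse, was at 596, 235 and 178 against 46.1 to 362 (median 152), a difference of 1.06 (SE 0.25, limma adjusted p = 0.192). FOSL2 (ENSSSCG00000024812), an AP-1 factor placed in the same list of osteoblast regulators, was lower, at 10.5, 12.8 and 25.8 against 10.1 to 47.2 (median 27.5) (log2 difference -0.68, SE 0.11, limma adjusted p = 0.143). The list as a whole was split, with 5 of 9 rows higher and 2 lower in every pig. SOX9, the factor required for the chondrocyte fate, was at 2723, 1099 and 1364 in ITGA4+BMPR1B+ cells against 1015 to 3918 (median 1763) in the others, a difference of -0.24 (SE 0.12, limma adjusted p = 0.452). It was below the mean of the others in each pig, but its difference turned to 0.19 on the signal as deposited. FOXA2, which acts in hypertrophic chondrocytes in mouse, was at 7.68, 44.96 and 25.99 against 0.795 to 30.9 (median 5.62) (log2 difference 1.38, SE 0.29, limma adjusted p = 0.175), highest in ITGA4+BMPR1B+ cells in each pig.

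Matrix genes of the cartilage list were higher in 8 of 25 rows and lower in 4 in every pig. On the signal as deposited 18 were higher and 1 lower. COL2A1 was above the mean of the others in pigs 5 and 6 and below it in pig 2, a difference of 0.39 (SE 0.28, limma adjusted p = 0.579). ACAN, the aggrecan core protein, was at 1764, 2155 and 2298 against 1367 to 3276 (median 2560.4) (log2 difference -0.21, SE 0.15, limma adjusted p = 0.579), below the mean in each pig, but its difference turned to 0.21 as deposited. MATN3, a matrilin that links collagen fibrils, was at 13.7, 49.7 and 24.6 against 5.25 to 53.1 (median 10.3) (log2 difference 0.94, SE 0.20, limma adjusted p = 0.181). LECT1, which encodes chondromodulin, was at 28.1, 60.8 and 25.9 against 4.21 to 41.04 (median 10.7) (log2 difference 1.51, SE 0.33, limma adjusted p = 0.191). COL11A1, a chain of the type XI collagen in the core of cartilage fibrils, was at 201, 340.2 and 230.5 against 87.3 to 317 (median 129) (log2 difference 0.75, SE 0.20, limma adjusted p = 0.202). These members were higher than the mean of the others in each pig, but ITGA4-BMPR1B+ cells reached higher levels of all 3 genes in pig 6.

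The other genes of smallest p among those that were higher encode secreted or secretory pathway proteins. LOX (ENSSSCG00000014232), the enzyme that cross-links collagen and elastin, was at 768, 820.1 and 567 in ITGA4+BMPR1B+ cells, against 369, 362 and 291 in ITGA4+BMPR1B-, 483, 707 and 619.8 in ITGA4-BMPR1B+ and 261, 352 and 186 in ITGA4-BMPR1B- cells. Its difference from the mean of the others was 0.92 (SE 0.15, limma adjusted p = 0.143), while its difference from ITGA4-BMPR1B+ cells was 0.25 (SE 0.19) and from ITGA4-BMPR1B- cells 1.46 (SE 0.19). FRZB (ENSSSCG00000016018), a secreted antagonist of WNT signalling, was at 17.1, 44.8 and 15.9 in ITGA4+BMPR1B+ cells against 6.77, 5.77 and 3.52 in ITGA4+BMPR1B-, 10.2, 19.7 and 18.5 in ITGA4-BMPR1B+ and 3.84, 4.77 and 1.86 in ITGA4-BMPR1B- cells (log2 difference 1.67, SE 0.28, limma adjusted p = 0.143). For FRZB, too, the difference was smaller from ITGA4-BMPR1B+ cells, at 0.55 (SE 0.35), than from ITGA4-BMPR1B- cells, at 2.49 (SE 0.35); whether these differ was not tested. MATN2 (ENSSSCG00000006082), a matrilin, was at 23.8, 43.8 and 33.5 against 10.4 to 39.1 (median 20.4) (log2 difference 0.63, SE 0.11, limma adjusted p = 0.143). PCOLCE2 (ENSSSCG00000011683), which assists the cleavage of procollagen, was at 44.04, 26.4 and 22.2 against 9.88 to 38.1 (median 17.6) (log2 difference 0.75, SE 0.14, limma adjusted p = 0.171). GPX8 (ENSSSCG00000021973), a peroxidase of the endoplasmic reticulum, was at 208, 268 and 169 against 96.5 to 179 (median 113) (log2 difference 0.76, SE 0.13, limma adjusted p = 0.150). FN1, which encodes the fibronectin that ITGA4 and ITGA5 integrins bind, was at 6250.4, 6702 and 3891 against 1601 to 6488 (median 3964) (log2 difference 0.64, SE 0.17, limma adjusted p = 0.209). FN1 made up most of the integrin and fibronectin signal of these 3 libraries, which summed to 6821, 7215 and 4456. In ITGA4-BMPR1B+ cells the same list summed to 7087, 6654 and 5814, so it was higher there in pigs 2 and 6. ITGA5 was at 37.6, 20.5 and 24.95 against 4.60 to 27.5 (median 19.3) (log2 difference 0.61, SE 0.29, limma adjusted p = 0.413).

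Ligands, receptors and targets of growth factor pathways did not share a direction. TGFB2, a TGF-beta ligand, was at 56.9, 47.8 and 21.2 against 12.3 to 38.95 (median 24.7) (log2 difference 0.72, SE 0.16, limma adjusted p = 0.191). The target CTGF had a log2 difference of 0.66 (SE 0.18, limma adjusted p = 0.209). Both genes were higher than the mean of the other populations in all 3 pigs. The receptor TGFBR2 was at 369, 433 and 503 against 531 to 728 (median 614) (log2 difference -0.50, SE 0.12, limma adjusted p = 0.198), so that all 3 ITGA4+BMPR1B+ libraries lay below the other 9. Over the TGF-beta list 4 of 15 rows were higher and 6 lower in every pig. Over BMP ligands, receptors and targets 1 of 19 was higher and 3 lower. On the signal as deposited the counts were 9 and 1 for the TGF-beta list and 10 and 0 for the BMP list, so neither has a direction that holds on both scales. The BMP target ID4 was at 153, 326 and 158 against 83.7 to 270.5 (median 91.6) (log2 difference 0.72, SE 0.16, limma adjusted p = 0.192). SMAD7, an intracellular inhibitor of both pathways, was at 20.1, 8.77 and 8.18 against 8.004 to 35.1 (median 15.2) (log2 difference -0.48, SE 0.14, limma adjusted p = 0.232). Among BMP antagonists 4 of 8 rows were higher in every pig and 0 lower. From ITGA4-BMPR1B+ cells alone, however, the 3 tested members had a median log2 difference of -0.34, with 1 of them positive. The summed signal of the list was 1277, 4519 and 2085 in ITGA4+BMPR1B+ cells of pigs 2, 5 and 6. In ITGA4-BMPR1B+ cells it was 1134, 6515 and 3241. The secreted antagonist GREM1 was at 1251, 4470.1 and 1995 against 758 to 6447 (median 1106) (log2 difference 0.50, SE 0.24, limma adjusted p = 0.420). The decoy receptor BAMBI was at 19.2, 37.9 and 55.96 against 10.6 to 61.6 (median 35.7) (log2 difference 0.25, SE 0.15, limma adjusted p = 0.499).

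**Figure D3:**
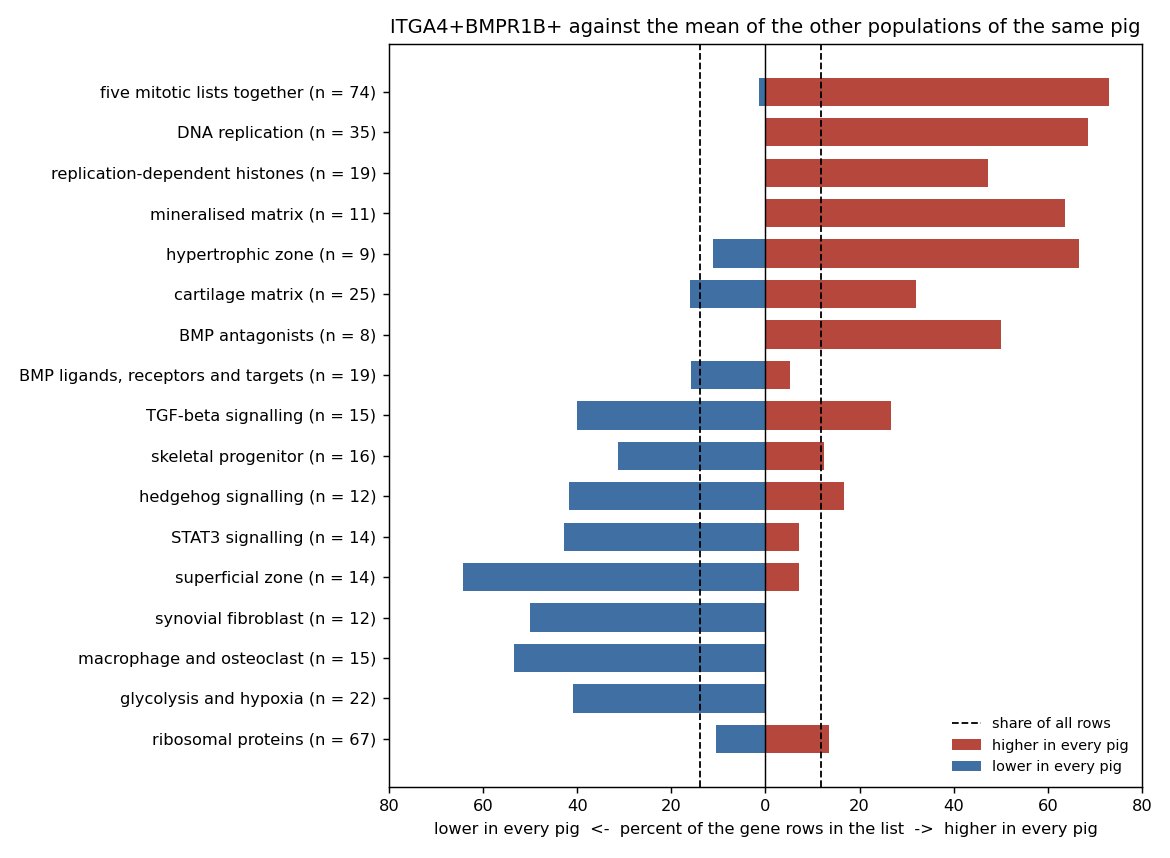
Share of the measured rows of each gene list that were higher (right) or lower (left) in ITGA4+BMPR1B+ cells than the mean of the other 3 populations in every pig, with n the number of rows. Dashed lines mark the shares over all 20263 rows, 11.8% higher and 14.0% lower. Mitotic, DNA replication, mineralised matrix and hypertrophic lists reach furthest to the right, and the superficial zone list, with 9 of 14 rows, furthest to the left.

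FTSJ3 (ENSSSCG00000017288), a ribosomal RNA methyltransferase of the nucleolus, had the smallest p of the genes named here. It was at 20.5, 14.02 and 15.2 in ITGA4+BMPR1B+ cells of pigs 2, 5 and 6, against 34.4, 19.96 and 23.4 in ITGA4+BMPR1B-, 41.5, 27.1 and 28.03 in ITGA4-BMPR1B+ and 47.01, 36.9 and 27.6 in ITGA4-BMPR1B- cells. ITGA4+BMPR1B+ cells were the lowest of the 4 in each pig (log2 difference -0.87, SE 0.12, limma adjusted p = 0.143). S100A2 (ENSSSCG00000006580), a calcium-binding protein, was at 12.8, 2.07 and 6.81 against 12.6 to 57.3 (median 32.6), also lowest in each pig (log2 difference -2.31, SE 0.38, limma adjusted p = 0.143). The table holds a second entry under this symbol, so its reads may be shared. FZD7 (ENSSSCG00000016111), a WNT receptor, was at 171, 138 and 278 against 219 to 428 (median 284), lowest in each pig although the pig 6 value lay within the range of the others (log2 difference -0.59, SE 0.12, limma adjusted p = 0.174). ZBTB7B (ENSSSCG00000028606), a transcription factor known as a repressor of collagen genes, was at 39.5, 26.4 and 36.2 against 31.2 to 76.6 (median 65.2) (log2 difference -0.83, SE 0.17, limma adjusted p = 0.174). HSD17B7 (ENSSSCG00000006337), an enzyme of cholesterol synthesis, was at 6.01, 20.8 and 16.3 against 7.44 to 35.04 (median 22.7) (log2 difference -0.48, SE 0.09, limma adjusted p = 0.174). C14H10orf116 (ENSSSCG00000029058) was at 0, 6.54 and 16.2 against 0.383 to 113 (median 16.1) (log2 difference -1.65, SE 0.32, limma adjusted p = 0.174), with a spread between pigs wider than that between populations.

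CTSK (ENSSSCG00000006647), the collagen-degrading protease cathepsin K, was at 128, 154 and 146 in ITGA4+BMPR1B+ cells, 295, 442 and 309 in ITGA4+BMPR1B-, 123, 132 and 108 in ITGA4-BMPR1B+ and 179, 271 and 215 in ITGA4-BMPR1B- cells. It was below the mean of the others in each pig (log2 difference -0.55, SE 0.12, limma adjusted p = 0.175), but ITGA4-BMPR1B+ cells were lower still in all 3. TIMP2 (ENSSSCG00000017164), an inhibitor of matrix metalloproteinases, was at 18.9, 25.8 and 59.1 against 21.9 to 91.4 (median 50.2) (log2 difference -0.63, SE 0.13, limma adjusted p = 0.175). GABARAP (ENSSSCG00000017936), an ATG8 family protein of autophagosome membranes, was at 322, 417 and 479 against 384 to 786 (median 542), lowest of the 4 in each pig (log2 difference -0.50, SE 0.10, limma adjusted p = 0.175). SQSTM1 (ENSSSCG00000014016), the autophagy receptor p62, was at 94.4, 122 and 187 against 124 to 311 (median 174) (log2 difference -0.59, SE 0.13, limma adjusted p = 0.180). SOCS3 (ENSSSCG00000029772), a feedback inhibitor induced by STAT3, was at 90.5, 118 and 111 against 95.6 to 228 (median 161), lowest of the 4 in each pig, a difference of -0.57 (SE 0.12, limma adjusted p = 0.175). In each of these genes the ITGA4+BMPR1B+ values overlapped with those of the other populations.

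**Figure D4:**
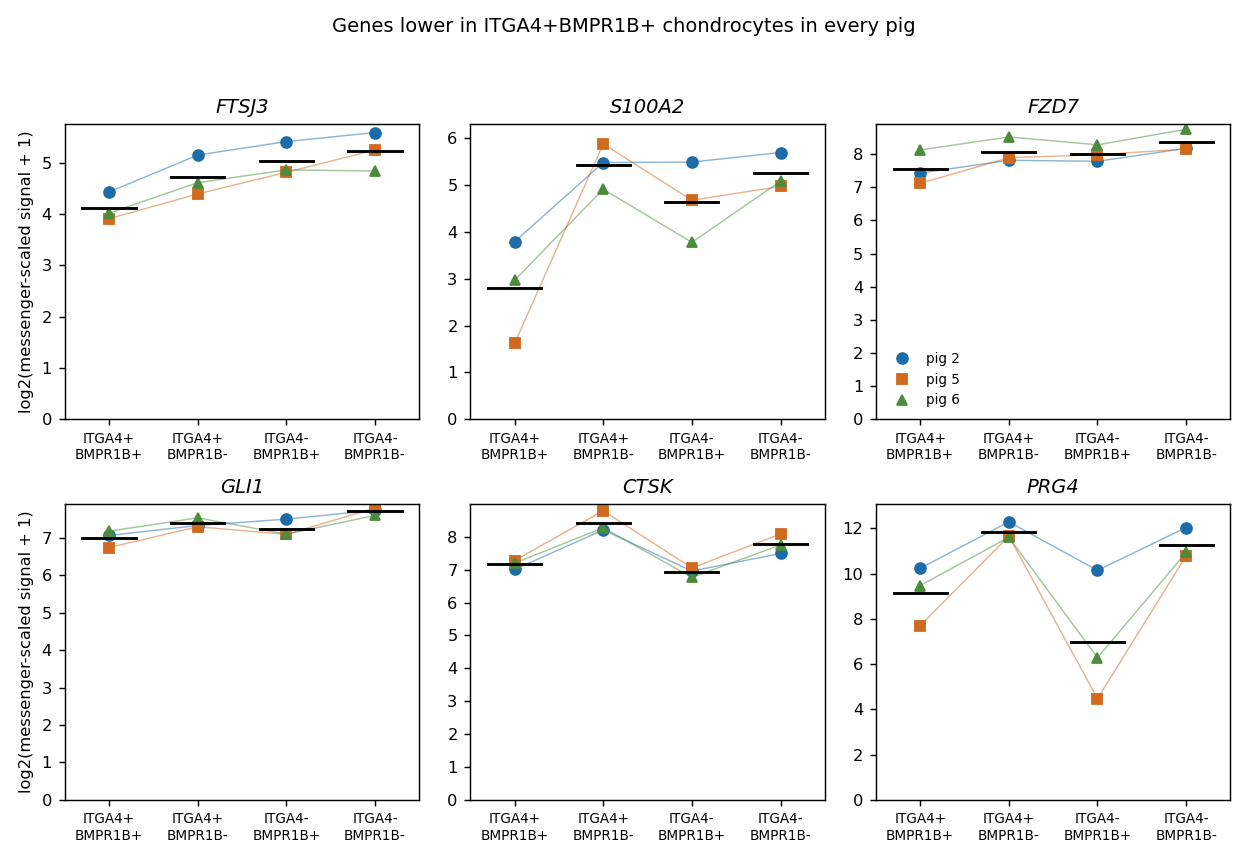
Messenger-scaled signal, as log2(signal + 1), of 6 genes that were lower in ITGA4+BMPR1B+ cells than the mean of the other populations in every pig. Points are libraries, lines join 1 pig and bars are means of 3 pigs. FTSJ3, S100A2 and FZD7 are lowest in ITGA4+BMPR1B+ cells in each pig. CTSK and PRG4 are lower in ITGA4-BMPR1B+ than in ITGA4+BMPR1B+ cells in each pig and GLI1 is so in pig 6.

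The superficial zone list was the one with the largest share of lower rows among those plotted, 9 of 14 in every pig. In it 1 row was higher (6 lower and 2 higher as deposited, 9 to 11 lower and 1 to 2 higher with any 1 pig left out). PRG4 (ENSSSCG00000029449), the lubricin of the joint surface, was at 1207, 207 and 709.6 in ITGA4+BMPR1B+ cells, 5010.04, 3229 and 3122 in ITGA4+BMPR1B-, 1132, 21.2 and 76.7 in ITGA4-BMPR1B+ and 4207, 1765 and 1964 in ITGA4-BMPR1B- cells. ITGA4+BMPR1B+ cells thus stood between BMPR1B- and ITGA4-BMPR1B+ cells in each pig, and the difference from the mean of the others was -0.89 (SE 0.67, limma adjusted p = 0.603). CLU, the secreted chaperone clusterin, was at 1179, 706 and 3413 against 1015 to 8327 (median 1953) (log2 difference -0.75, SE 0.25, limma adjusted p = 0.271). THBS4, a thrombospondin of the matrix, was at 7.53, 2.60 and 22.7 against 5.89 to 61.1 (median 17.8) (log2 difference -1.03, SE 0.35, limma adjusted p = 0.293). Also lower in each pig were the matrix-binding protein ABI3BP, at -0.80 for the entry of smaller p of its 2, and the tenascin TNXB, at -0.62.

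GLI1 (ENSSSCG00000000443), the transcription factor that is both effector and target of hedgehog signalling, was at 133, 107 and 144 in ITGA4+BMPR1B+ cells against 136 to 222 (median 181) in the others. It was lower than the mean of the others in each pig, with a log2 difference of -0.45 (SE 0.13, limma adjusted p = 0.230). GLI3, the pathway's main repressor, was at 35.003, 57.7 and 178 against 48.9 to 256 (median 119) (log2 difference -0.57, SE 0.18, limma adjusted p = 0.260). The co-receptors CDON and BOC had differences of -0.44 (SE 0.17, limma adjusted p = 0.336) and -0.44 (SE 0.19, limma adjusted p = 0.377). PTCH1, the receptor and a target, was at 8.75, 8.61 and 10.4 against 5.19 to 8.81 (median 8.05) (log2 difference 0.23, SE 0.14, limma adjusted p = 0.494), the highest of the 4 in each pig. So the ligand IHH and the receptor PTCH1 were higher in each pig while GLI1, GLI3, CDON and BOC were lower. IHH, however, passed the filter on low values only with the help of the ITGA4+BMPR1B+ libraries. Over the hedgehog list 2 of 12 rows were higher and 5 lower in every pig, but 4 were higher and 1 lower as deposited. Over WNT antagonists and targets 2 of 11 rows were higher and 3 lower, and over integrins and fibronectin 5 of 20 were higher and 5 lower.

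STAT3 (ENSSSCG00000017403), the transcription factor of interleukin-6 family signalling, was at 15.9, 14.9 and 23.1 against 18.8 to 32.1 (median 24.9), lower than the mean of the others in each pig (log2 difference -0.43, SE 0.12, limma adjusted p = 0.221). OSMR, a receptor of that family, was at 52.8, 81.3 and 158 against 64.5 to 249 (median 127) (log2 difference -0.47, SE 0.13, limma adjusted p = 0.209). With SOCS3, these members make up part of the 6 of 14 rows that were lower in every pig, while 1 was higher. On the signal as deposited 1 was lower and 4 higher. The level of STAT3 messenger RNA does not measure its phosphorylated protein. SOD2, a superoxide dismutase induced in inflammation, was at 3029.9, 1960.2 and 2872 against 1690.3 to 7494 (median 4114) (log2 difference -0.59, SE 0.22, limma adjusted p = 0.319). ENG, a TGF-beta co-receptor on progenitor and endothelial cells, was at 27.2, 13.05 and 45.1 against 17.2 to 87.2 (median 55.4) (log2 difference -0.80, SE 0.25, limma adjusted p = 0.251). PDGFRB, a receptor of mesenchymal cells, has 2 entries, and the one abundant enough to be tested was at 31.5, 10.5 and 59.5 against 32.2 to 95.7 (median 46.7) (log2 difference -0.88, SE 0.27, limma adjusted p = 0.241). The WNT antagonist SFRP1 was at 4.64, 2.50 and 5.74 against 3.82 to 13.95 (median 7.33) (log2 difference -0.74, SE 0.21, limma adjusted p = 0.230). These 4 genes were lower than the mean of the others in each pig, with the groups overlapping. The skeletal progenitor list as a whole had 2 of 16 rows higher and 5 lower in every pig, but 8 and 0 on the signal as deposited.

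Of the glycolysis and hypoxia list 9 of 22 rows were lower in every pig and 0 higher, which became 0 lower and 9 higher on the signal as deposited. ALDOC, an aldolase, was at 177, 111 and 202 against 183 to 279.8 (median 222) (log2 difference -0.51, SE 0.15, limma adjusted p = 0.230). NDRG1, a gene induced by hypoxia, was at 9.81, 6.63 and 14.5 against 11.7 to 19.3 (median 13.5) (log2 difference -0.50, SE 0.14, limma adjusted p = 0.209). PKM, the pyruvate kinase, was at 341, 239 and 412 against 308 to 531 (median 402) (log2 difference -0.33, SE 0.13, limma adjusted p = 0.338), but its difference turned to 0.0808 as deposited. Among interferon response genes 5 of 14 rows were lower and 0 higher. The ubiquitin-like ISG15 was at 0, 0 and 3.07 against 0 to 12.7 (median 7.13) (log2 difference -2.11, SE 0.55, limma adjusted p = 0.198). Of inflammatory and catabolic genes 2 of 18 rows were higher and 5 lower. Of immediate early genes 3 of 19 were higher and 4 lower, and of heat shock genes 2 of 14 were higher and 3 lower. Ribosomal protein genes were split, with 9 of 67 rows higher and 7 lower and a median of 0.02, although 55 were higher and 0 lower as deposited.

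Marker lists of other cell types were counted in the same way. Of 15 macrophage and osteoclast rows 0 were higher and 8 lower in every pig. The markers TYROBP, CSF1R and ACP5 were at 0, the lowest value of the table, in all 3 ITGA4+BMPR1B+ libraries. Other members were not, such as CTSS at 2.89, 1.38 and 2.02 and FCER1G at 0, 2.92 and 0 in pigs 2, 5 and 6. In ITGA4-BMPR1B+ libraries TYROBP and ACP5 were at 0 as well, and CSF1R was at 0.201, 0 and 0. In ITGA4+BMPR1B- libraries ACP5 was at 115, 16.7 and 0, TYROBP at 35.6, 4.48 and 0 and CSF1R at 9.78, 0 and 0.127 in pigs 2, 5 and 6. Most of this signal was thus in pig 2. Their part in the genes lower in ITGA4+BMPR1B+ cells was not tested. The summed signal of the list was 265, 121 and 274 in ITGA4+BMPR1B+ libraries and 165 to 783 (median 241) in the others. Of the endothelial list 1 of 13 rows was higher and 1 lower, with a summed signal of 94.4, 20.9 and 20.6 against 18.8 to 176 (median 27.2). Of the pericyte and smooth muscle list 4 of 16 rows were higher and 4 lower (919, 642 and 1101 against 513 to 1537 (median 1066)). Of the synovial fibroblast list 0 of 12 were higher and 6 lower, against 1 and 0 as deposited. Its member COL6A3, a chain of type VI collagen, was at 1098, 530.2 and 1101 against 585 to 1694 (median 1145) (log2 difference -0.35, SE 0.10, limma adjusted p = 0.226), and its difference turned to 0.0705 as deposited. Of the lymphocyte list 0 of 11 rows were higher and 2 lower, of the neutrophil list 1 of 7 and 1, and of the skeletal muscle list 0 of 7 and 2. The erythroid and adipocyte lists had 0 rows in either direction.

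The mean of the other populations joins cells that differ among themselves, so the difference was also taken from each population in turn. These differences share the ITGA4+BMPR1B+ libraries and are given side by side. Medians were taken over the members that passed the filter on the other 9 libraries alone, so that no member entered through a high level in ITGA4+BMPR1B+ cells. Over the 15 such rows of the 5 mitotic lists the median log2 difference was 0.69 from ITGA4+BMPR1B-, 0.57 from ITGA4-BMPR1B+ and 0.61 from ITGA4-BMPR1B- cells. The hypertrophic list (5 rows) had medians of 0.11, 0.41 and 1.10 in the same order. The mineralised matrix list (5 rows) had 0.86, -0.07 and 0.63. The medians of the mineralised matrix list thus differed in sign, and so did those of the cartilage matrix list (23 rows), with 0.46 from ITGA4+BMPR1B-, -0.29 from ITGA4-BMPR1B+ and 0.30 from ITGA4-BMPR1B- cells. The superficial zone list (7 rows) had -1.89, 0.64 and -1.13. Its summed signal, most of it from PRG4 and CLU, was 2633, 1012 and 4506 in ITGA4+BMPR1B+ cells against 2773, 1106 and 2111 in ITGA4-BMPR1B+ cells of pigs 2, 5 and 6. By the sum, ITGA4+BMPR1B+ cells were thus slightly lower than ITGA4-BMPR1B+ cells in pigs 2 and 5 and higher in pig 6.

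**Figure D5:**
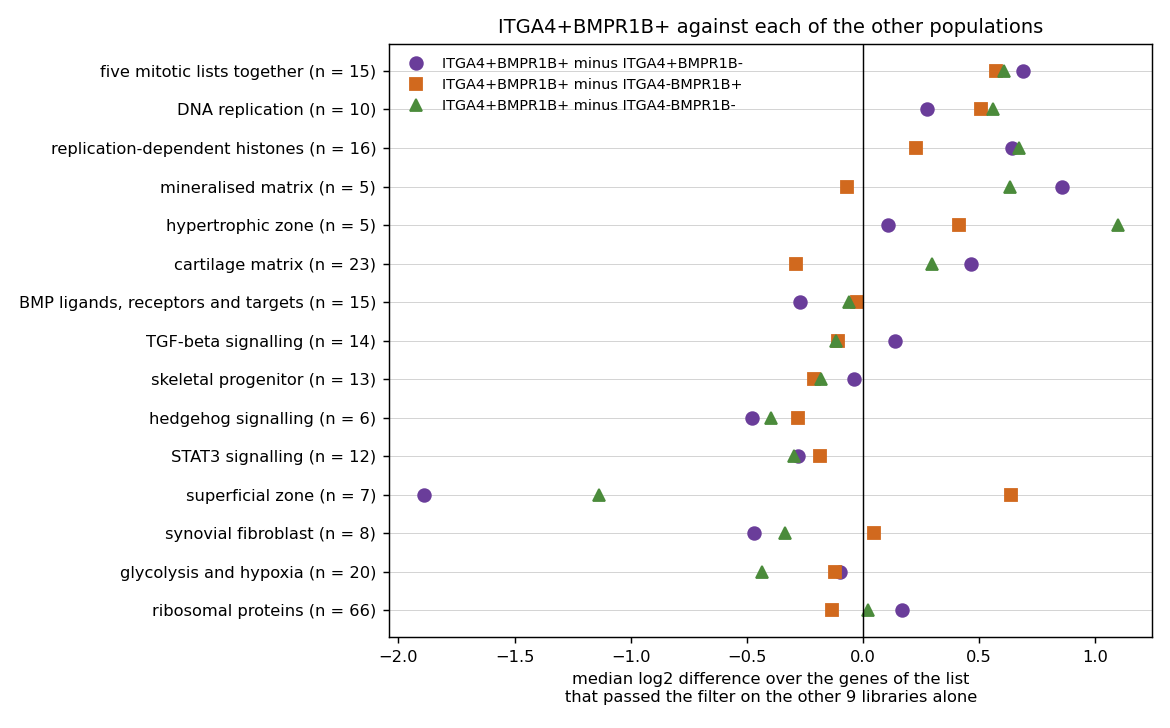
Median log2 difference of ITGA4+BMPR1B+ cells from each of the other 3 populations over the genes of each list that passed the filter on low values in the other 9 libraries alone, with n the number of such genes. For the mitotic lists the 3 medians lie together between 0.57 and 0.69, whereas for the superficial zone list they run from -1.89 to 0.64.

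Whether the level in ITGA4+BMPR1B+ cells differed from the sum of the differences seen with ITGA4 alone and with BMPR1B alone was tested as an interaction. Limma called 0 of 9077 genes (0%), with 326 at an unadjusted p under 0.05, and the smallest adjusted p was 0.9999. UBE2C had an interaction of -0.13 (SE 0.60, limma adjusted p = 0.9999) and TOP2A one of 0.32 (SE 0.82, limma adjusted p = 0.9999). STMN1, among the 5 genes of smallest interaction p in the positive direction, had one of 2.05 (SE 0.57, limma adjusted p = 0.9999). It was at 19.7, 60.9 and 54.6 in ITGA4+BMPR1B+, 9.58, 4.87 and 9.53 in ITGA4+BMPR1B-, 4.96, 9.84 and 19.4 in ITGA4-BMPR1B+ and 5.31, 9.52 and 11.96 in ITGA4-BMPR1B- cells. EMC6, a subunit of the membrane protein insertion complex of the endoplasmic reticulum, was at 197, 205 and 164 in ITGA4+BMPR1B+ cells, 92.8, 114 and 124 in ITGA4+BMPR1B-, 144, 113 and 143 in ITGA4-BMPR1B+ and 213, 145 and 159.7 in ITGA4-BMPR1B- cells. Its interaction was 1.14 (SE 0.27, limma adjusted p = 0.9999).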

How the data were processed

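Chondrocytes of adult pig knee cartilage were sorted on ITGA4 and BMPR1B. The authors isolated total RNA (Qiagen Micro kit), prepared libraries with the Ovation SoLo system of NuGen and sequenced them on an Illumina HiSeq with paired ends. They aligned the reads with STAR to an Ensembl pig reference and quantified transcripts with the E/M method of Partek. The sources used here name no version of STAR or Partek and no normalization of the signal. The signal the authors deposited covers 25322 genes in 15 libraries, each summing to 629194 or 629195, with 0.0001 as the lowest value, which was set to 0. Depth in reads is unknown, and relative depth came from the steps between low values (44 of 66 library pairs within 0.1 on the log2 scale of the fit).

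Structural RNA (1125 genes) and mitochondrial genes (37) were left out, since their share differed between libraries, and the other 24160 were scaled by median ratios over 11966 genes seen in all 12 chondrocyte libraries. Genes above 5 in at least 3 libraries (9077, of which 6911 had a symbol and 72 shared identical values with another gene) were tested with limma 3.58.1 in R 4.3.3 on log2(signal + 1), with a trended prior, a term per population and the pig as a block. A fold change on this scale understates the change of low genes. The contrast was ITGA4+BMPR1B+ minus the mean of the other 3 populations, with the interaction of both markers beside it, and p values were adjusted after Benjamini and Hochberg (threshold 0.05). The procedure was tested on simulated data. The labels give the pig of each library, and with population means removed all 12 libraries correlated best with a library of their own pig (0.135 to 0.439 within pigs, median -0.154 between pigs).

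Named genes were UBE2C, TOP2A, SPP1, ITGA4, BMPR1B, SOX9, GLI1, RUNX2, STAT3, PRG4 and COL2A1. To these came the 12 genes of smallest p in each direction with a symbol, a mean of at least 20 in the higher group and the same direction in all pigs, list members of smallest p, and the 5 genes of smallest interaction p in each direction. A few list members were named after their values were seen, among them AURKB, BUB1, CDK1, ALPL and ACP5. The comparison, members and lists were chosen with earlier results of these data known. Alternatives were the scaling, pseudocount, filter, prior, form of the model, block, and leaving out libraries or pigs. The CD146+ libraries were not used here. Sequences were not used here, and a few genes that the rule names are not reported here.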

Additional observations from a re-analysis of the deposited data

Results flagged for a closer look

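Among the 9 libraries of the other populations, 1 library stood apart from the rest for 5 of the 106 named genes checked. Gaps and ranges were taken on log2(signal + 1), whereas the levels below are the signal itself. Chance gives such a gap in about 1 of 20 groups, so a count of this size is near that rate. In the ITGA4+BMPR1B- library of pig 5, MEF2C was highest at 6.08 with 4.07 next, and the gap made up 0.542 of the whole range. In the same library ZBTB7B was lowest at 31.2, with 53.1 next and a gap of 0.589 of the range, and PTCH1 was lowest at 5.19, with 7.16 next and a gap of 0.602. In the ITGA4-BMPR1B+ library of pig 5, ITGA5 was lowest at 4.60, with 16.5 next and a gap of 0.702, and ISG15 was at 0, the lowest value of the table, with 2.68 next and a gap of 0.498.

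For 4 of the 106 named genes checked, the difference between BMPR1B+ and BMPR1B- cells had 1 sign among ITGA4+ cells of all 3 pigs and the opposite sign among ITGA4- cells. The log2 difference of EMC6 was 1.08, 0.85 and 0.40 in ITGA4+ cells of pigs 2, 5 and 6 and -0.56, -0.36 and -0.16 in ITGA4- cells, an interaction of 1.14 (limma adjusted p = 0.9999). SLC50A1, a sugar transporter, ran the other way, at -0.23, -0.63 and -0.25 in ITGA4+ cells and 0.25, 0.45 and 0.41 in ITGA4- cells, an interaction of -0.74. FBXL7, a ubiquitin ligase subunit, was at -0.38, -0.66 and -0.48 in ITGA4+ cells and 0.19, 0.21 and 0.03 in ITGA4- cells (-0.65), and BOC at -0.19, -1.53 and -0.44 in ITGA4+ cells and 0.11, 0.19 and 0.08 in ITGA4- cells (-0.84). For the last 3 genes the limma adjusted p was 0.9999 too, so none of these differences passed the test. These genes were chosen among others for small p values, and the signs are a description.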

How the results depend on the processing

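Of 106 named genes under each alternative that gave a value, 2562 of 2568 estimates kept their direction, and as in the chosen fit none passed the threshold. Many of these genes were named for a small p, some also for the same direction in every pig. This selection made a change of sign unlikely, so the count is no measure of stability. The 6 estimates that changed sign did so on the signal as deposited, where the median of all genes lay at 0.21, with SOX9 at 0.19, ACAN at 0.21, PKM at 0.0808, COL6A3 at 0.0705, SLC50A1 at 0.0376 and FBXL7 at 0.0396. On that scale 1 gene was called higher (ENSSSCG00000030414, log2 difference 1.04, limma adjusted p = 0.0473), and 3745 genes were higher and 249 lower in every pig, against 1453 and 1579. Without a filter limma called 1 gene higher, 1 lower and 1 in the interaction, with 2384 higher and 2836 lower in every pig, and with a filter above 20 the counts in every pig were 731 and 858. A pseudocount of 5 gave 1 interaction call. Without the pig as a replicate block limma called 0 genes, with 598 at an unadjusted p under 0.05, against 1163 with the pairing by pig. Leaving out 1 library or 1 pig gave 0 to 1 genes called higher, 0 to 1 called lower and 0 to 2 in the interaction. The higher call came without pig 2 (ENSSSCG00000024625) or without the ITGA4-BMPR1B+ library of pig 6 (ENSSSCG00000024821), the lower one without the ITGA4+BMPR1B+ library of pig 2 (ENSSSCG00000025570). With 1 pig left out, 2232 to 2432 genes were higher and 2415 to 2439 lower in both remaining pigs. Why these counts moved was not tested, beyond the smaller number of pigs that had to share a direction. The robust prior, the fit of 2 groups, a pseudocount of 0.2 and the arithmetic mean called 0 genes. The median over the 15 mitotic rows that passed the filter on the other 9 libraries alone was 0.66, and 0.44 without the ITGA4+BMPR1B+ library of pig 5. Without that library a direction is carried by pigs 2 and 6 only. Low messenger RNA depth, as estimated for the ITGA4+BMPR1B+ libraries, limits the values of low genes most.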

Other observations

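After the values had been seen, 2 further lists were drawn up, and they are given as a description. Of 37 autophagy and lysosome rows, 19 were lower in ITGA4+BMPR1B+ cells than the mean of the others in every pig and 1 higher, beside 14.0% and 11.8% of all rows, but on the signal as deposited 3 were lower and 10 higher. The median log2 difference of the tested members was -0.25, and 0.08 as deposited. It was -0.46 from ITGA4+BMPR1B-, -0.06 from ITGA4-BMPR1B+ and -0.19 from ITGA4-BMPR1B- cells. CTSA, a lysosomal carboxypeptidase, was at 26.9, 24.2 and 55.9 in ITGA4+BMPR1B+ cells against 35.1 to 98.1 (median 55.9) in the others, a log2 difference of -0.79 (SE 0.17, limma adjusted p = 0.191). PSAP, the precursor of the saposins that help break down sphingolipids, was at 60.999, 55.6 and 107 against 70.98 to 154 (median 99.2) (log2 difference -0.55, SE 0.13, limma adjusted p = 0.192). For both genes the groups overlapped. LAMP2, a lysosomal membrane protein, GRN, which encodes progranulin, and the protease CTSB had differences of -0.43, -0.63 and -0.52, each lower in all 3 pigs. Macrophages are rich in these products. Their markers TYROBP and CSF1R were at 0 in the 3 ITGA4+BMPR1B+ libraries and at 35.6 and 9.78 in the ITGA4+BMPR1B- library of pig 2. In ITGA4-BMPR1B+ libraries both were at 0 too, except CSF1R at 0.201 in pig 2. The part of macrophages in these differences was not tested.

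The collagen processing and cross-linking list had no common direction, with 6 of 19 rows higher and 5 lower in every pig. Beside LOX and PCOLCE2, LOXL4, a lysyl oxidase homologue, was at 277, 2373 and 1428 in ITGA4+BMPR1B+ cells against 193 to 1876 (median 415) in the others (log2 difference 0.91, SE 0.31, limma adjusted p = 0.287), higher in each pig but lowest in pig 2 by a wide margin. PLOD2, which hydroxylates lysines of collagen, was at 137, 248 and 173 against 91.2 to 219 (median 127) (log2 difference 0.41, SE 0.13, limma adjusted p = 0.271). LOXL1, another member of the lysyl oxidase family, was lower in each pig, at 4.51, 5.13 and 14.99 against 4.81 to 18.5 (median 11.1) (log2 difference -0.49, SE 0.24, limma adjusted p = 0.429).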
